A study of Mus musculus with 8 samples.

Results

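The genes described here were 10 genes of hormone and lipid sensing in the mouse brain cortex. They comprised 9 nuclear receptors, namely the retinoic acid receptors Rara and Rarb, the retinoid X receptors Rxra, Rxrb and Rxrg, the fatty acid sensing receptors Ppara and Ppard, the oxysterol receptor Nr1h2 and the thyroid hormone receptor Thra, together with their coactivator Ppargc1a. They were chosen by gene name from the expression table of 13996 genes, and all 10 names were found and passed the filter on low values. The mice were male C57BL/6 animals killed at 16 weeks of age. A group of 4 mice ate a conventional diet, here called normal, and the other group of 4 mice ate a diet with 60% fat by weight (high fat diet, HFD) for 8 weeks, starting at 8 weeks of age. RNA of the dissected cortex, freed of rRNA, was sequenced with 1 library per mouse. The HFD mice were heavier and tolerated glucose less well, as the study reports. Cells were not sorted, so that each value is the mean over a piece of tissue.

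Nuclear receptors are transcription factors that are switched by small fat-soluble ligands. RXR proteins are the shared partners of the group: they pair with RAR proteins, which bind retinoic acid made from vitamin A, with PPAR proteins, which bind fatty acids, with LXR proteins such as the product of Nr1h2, which bind oxysterols, and with thyroid hormone receptors. In the forebrain, Rarb and Rxrg are known as receptors of the striatum, whereas Thra is the main thyroid hormone receptor of neurons, and Ppargc1a encodes PGC-1 alpha, a coactivator that drives genes of mitochondria.

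The genes lie on 8 chromosomes of the GRCm38 mouse genome. Rarb (ENSMUSG00000017491.9) spans chr14:16430839-16819156 on the minus strand, and Rara (ENSMUSG00000037992.16) spans chr11:98927818-98974942 on the plus strand. Rxrg (ENSMUSG00000015843.10) is at chr1:167598384-167639623, Rxra (ENSMUSG00000015846.14) at chr2:27676440-27762957 and Rxrb (ENSMUSG00000039656.16) at chr17:34031812-34038399, all on the plus strand. Thra (ENSMUSG00000058756.13) is at chr11:98740638-98769006, also on the plus strand and on the same chromosome as Rara. Ppara (ENSMUSG00000022383.13) is at chr15:85734983-85802819 and Ppard (ENSMUSG00000002250.15) at chr17:28232700-28301474, both on the plus strand. Nr1h2 (ENSMUSG00000060601.13) is at chr7:44549616-44553951 and Ppargc1a (ENSMUSG00000029167.13) at chr5:51454250-51567726, both on the minus strand.

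RXR partners read direct repeats of a 6-base motif, and the spacing between the copies differs between partners, with a spacing of 5 known for RAR and of 4 for thyroid hormone receptors. Promoter windows of 300 bases, from 250 before to 50 after the RefSeq start on GRCm38.p6, were at hand for 9 of the 10 genes in 15 windows. They were searched on both strands for direct repeats of the motifs AGGTCA and AGTTCA and GGGTCA and GGTTCA, in any pair, spaced by 1 to 5 bases. Of the 15 windows, 1 window of Rarb held a match, with a spacing of 5, and it is shown because Rarb is itself a known target of retinoic acid. In the sequence, read 5′ to 3′ on the minus strand at chr14:16575506-16575535, the capitals mark the repeat with its spacer.
Rarb: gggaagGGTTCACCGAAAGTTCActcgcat
The repeat lies 53 to 37 bases before that RefSeq start, inside a 5′ UTR exon of the annotated transcripts Rarb-201 and Rarb-207. A repeat with this spacing was found in 32 of 32851 promoter windows (0.0974%), against 0.0822% for a spacing of 4 and 0.222% for a spacing of 1, and this exact element was in 1 window. A match is a description of letters and was not tested for binding, and a window without one says nothing on binding.

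Levels are given in FPKM, a fragment count scaled by transcript length and by the mapped reads of the library, which scale with RNA per transcript length and can be compared between genes. Depth per library is unknown, since the deposited values are FPKM rounded to 0.1. The difference between diets was tested with limma on log2(FPKM + 0.1) over 13982 genes, and a gene was called changed at a Benjamini-Hochberg adjusted p below 0.05. A log2 fold change given here is HFD minus normal on that scale, which understates the change of low genes. Over all genes tested, 33.1% were called, 17.7% as higher and 15.3% as lower in HFD. Values of the 4 normal mice did not overlap those of the 4 HFD mice for 31.9% of the genes.

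Marker genes of several brain regions and cell types differed in level between the diets. Of 13 measured striatum markers, 12 were called lower in HFD, with a summed FPKM of 333 to 560.6 in normal mice and 151.4 to 164.9 in HFD mice. Of 9 tested cerebellum markers, 6 were called lower, and a 10th marker, Gabra6, was not tested because it was listed at 0 in an HFD mouse. The sum over all 10, Gabra6 included, was 345.3 and 455.1 in normal mice 2 and 3, 61 and 125.5 in normal mice 1 and 4, and 41.7 to 49.5 in HFD mice. Cortical projection neuron markers went the other way, with 8 of 10 called higher and a sum of 448.9 to 639.4 in normal and 693 to 869.7 in HFD mice. All 10 oligodendrocyte markers were called lower, with a sum of 2146 to 3536.7 in normal and 1482.2 to 2059.5 in HFD mice. No measured marker of the striatum, cortical projection neuron or oligodendrocyte lists was at 0, but the authors had already filtered the genes on low and 0 values. Of 16 listed striatum markers, 13 were measured. In tissue RNA, fewer cells of a type and less RNA per cell cannot be told apart, and diet and the share of each region in the dissected piece cannot be told apart either where a marker list splits by diet.

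Of the 10 genes, 6 were called, 4 as higher and 2 as lower in HFD, against 33.1% of all genes tested. The 4 values of each diet did not overlap for 5 of the 10, against 31.9% of all genes. The median log2 fold change of the 10 genes was 0.15, and that of all genes tested was 0.0031. A call with a change above 50% was made for 2 of the 10, Rarb and Rxrg, against 7.13% of all genes. Both lost expression, whereas the 4 genes called higher, Ppargc1a, Rxra, Nr1h2 and Thra, gained between 23.3% and 36.3%.

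**Figure D1:**
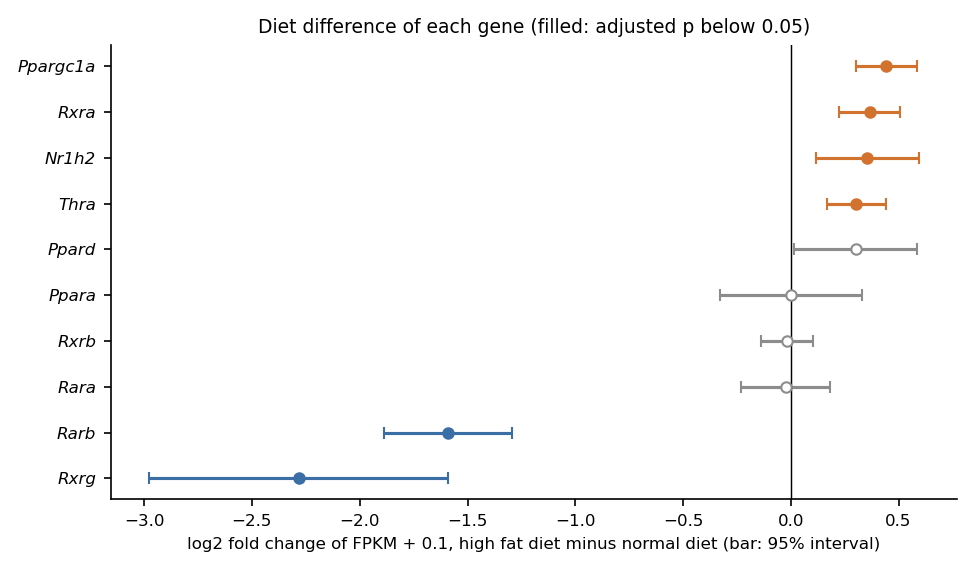
Log2 fold change of FPKM + 0.1 between diets (x axis, HFD minus normal) for each of the 10 genes, with bars for the 95% interval and filled points for an adjusted p below 0.05. Rarb and Rxrg lie far to the left of 0 at -1.59 and -2.28, and the 4 filled points on the right lie between 0.30 and 0.44.

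In normal mice the genes spanned from a mean of 1.18 FPKM for Ppara to 215 FPKM for Thra. By the mean over all 8 mice, Thra ranked 209 of 13982 genes. Below it followed Rxrb and Nr1h2, each apart from the next gene in all 4 normal mice. Ppargc1a, Rxrg, Rarb and Rxra followed with overlapping values from 5.9 to 12.2 FPKM, so that their order was not set beyond the spread between mice. Rara, Ppard and Ppara closed the order, each below the gene before it in all normal mice.

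**Figure D2:**
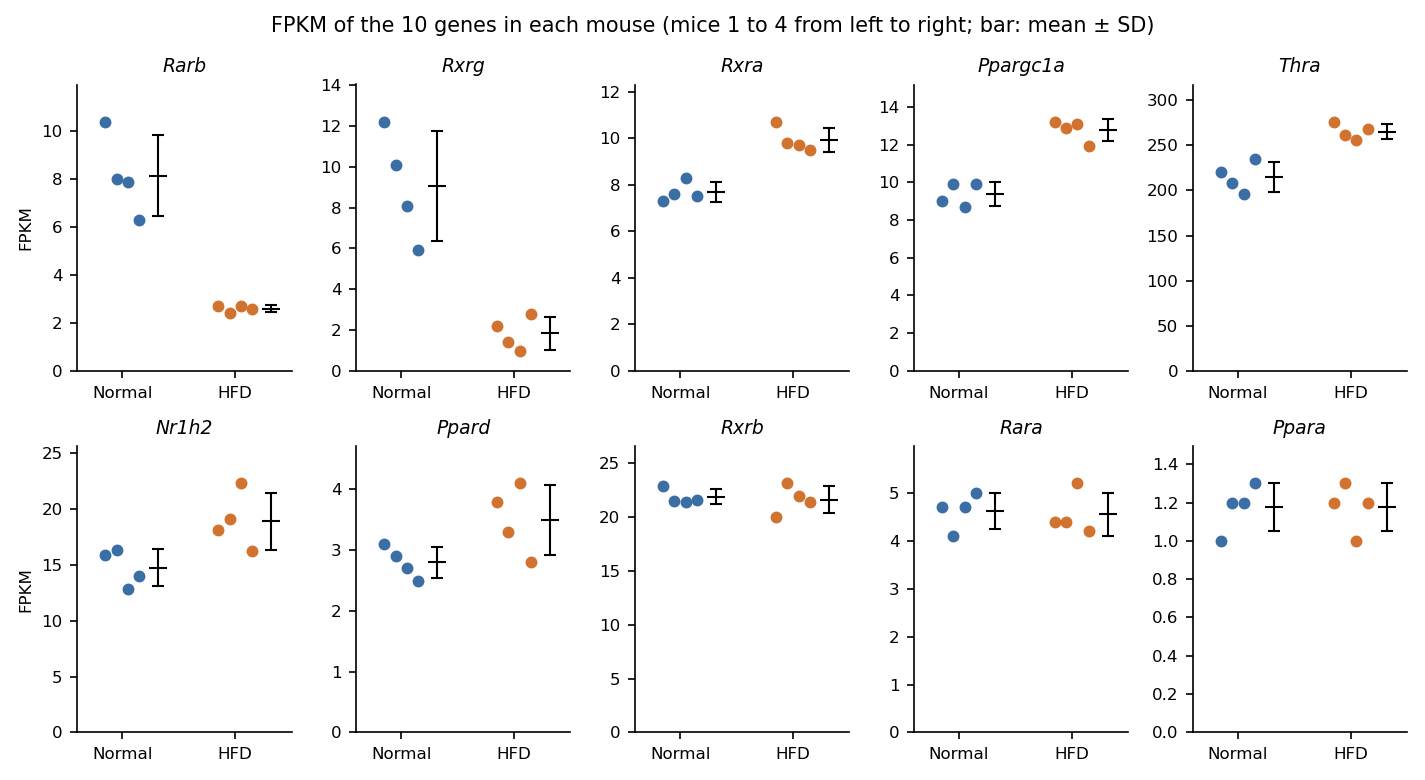
FPKM (y axis, from 0) of each gene in each mouse, with the 4 normal mice on the left and the 4 HFD mice on the right of each panel and the mean ± SD beside them. The points of Rarb, Rxrg, Rxra, Ppargc1a and Thra do not overlap between the diets, and those of Ppard, Rxrb, Rara, Ppara and Nr1h2 do.

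Among the retinoic acid receptors, Rarb fell and Rara did not pass the test. Rarb, the receptor whose promoter repeat is shown above, was at 10.4, 8.0, 7.9 and 6.3 FPKM in normal mice 1 to 4 and at 2.7, 2.4, 2.7 and 2.6 FPKM in HFD mice 1 to 4. All 4 HFD mice lay close together and below every normal mouse. The mean fell from 8.15 ± 1.69 to 2.60 ± 0.141 FPKM (SD, n = 4 per diet), or 3.13-fold, with a log2 fold change of -1.59 (SE 0.13, 95% interval -1.89 to -1.29) and a limma adjusted p of 0.000193. Among the 13982 genes tested, Rarb ranked 61 from the bottom by log2 fold change.

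Rara, the widely expressed receptor of the family, was at 4.7, 4.1, 4.7 and 5.0 FPKM in normal mice and at 4.4, 4.4, 5.2 and 4.2 FPKM in HFD mice. The values of the diets overlapped fully, with a log2 fold change of -0.02 (SE 0.09, 95% interval -0.23 to 0.18, limma adjusted p = 0.859). Rarg, the remaining paralog of the family, averaged 2.28 ± 0.0957 FPKM in normal and 2.65 ± 0.265 FPKM in HFD mice with an adjusted p of 0.135. The summed FPKM of the 3 receptors was 15.1 ± 1.61 in normal and 9.80 ± 0.476 in HFD mice. Rarb made up 46.7% to 60.1% of that sum in the normal mice and 25.3% to 28.0% in the HFD mice, and Rara was the most abundant RAR transcript in each HFD mouse.

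The final exons of Rarb overlap those of Top2b, a topoisomerase gene on the opposite strand, over 1793 bases or 34.1% of the exonic length of Rarb. Top2b, which was looked up after its values were seen, was at 19.4 ± 0.479 FPKM in normal and 17.1 ± 0.465 FPKM in HFD mice, a log2 fold change of -0.18 (SE 0.04, limma adjusted p = 0.0122). A further antisense gene, Gm48162, shares 227 exonic bases with Rarb and was not found under that name in the expression table. The library kit keeps strand, and the sources used here do not say whether the counting used it, and without strand the reads of the 2 genes cannot be told apart there. The part of Top2b reads in the Rarb value was not tested.

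Of the RXR genes, Rxrg fell, Rxra rose and Rxrb did not pass the test. Rxrg, the receptor of restricted expression, was at 12.2, 10.1, 8.1 and 5.9 FPKM in normal mice 1 to 4 and at 2.2, 1.4, 1.0 and 2.8 FPKM in HFD mice 1 to 4. Every HFD mouse was below every normal mouse, and the normal mice spread over more FPKM than the HFD mice did. The mean went from 9.08 ± 2.70 to 1.85 ± 0.806 FPKM, a 4.91-fold lower level in HFD, with a log2 fold change of -2.28 (SE 0.31, 95% interval -2.98 to -1.59, limma adjusted p = 0.0012). It ranked 25 from the bottom of all genes tested, the most negative value of the 10 genes. The Rxrg call was lost in limma with the cortical projection neuron markers as covariate (-1.76, adjusted p = 0.111). It was kept with the cerebellum markers as covariate (-2.44, adjusted p = 0.0319).

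Rxra, a broadly expressed RXR, was at 7.3, 7.6, 8.3 and 7.5 FPKM in normal mice and at 10.7, 9.8, 9.7 and 9.5 FPKM in HFD mice. The lowest HFD mouse was above the highest normal mouse, and the mean rose by 29.3% from 7.68 ± 0.435 to 9.93 ± 0.532 FPKM (log2 fold change 0.37, SE 0.06, limma adjusted p = 0.00303). Rxrb, the most abundant RXR transcript in all 8 mice, was at 22.9, 21.5, 21.4 and 21.6 FPKM in normal mice and at 20.0, 23.1, 21.9 and 21.4 FPKM in HFD mice. The 95% interval of its log2 fold change ran from -0.14 to 0.10 (limma adjusted p = 0.818).

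The RXR family as a sum was at 42.4, 39.2, 37.8 and 35.0 FPKM in normal mice and at 32.9, 34.3, 32.6 and 33.7 FPKM in HFD mice. The diets did not overlap in this sum, whose mean was 38.6 ± 3.08 in normal and 33.4 ± 0.772 FPKM in HFD mice. Rxrg supplied 16.9% to 28.8% of it in normal mice and 3.07% to 8.31% in HFD mice. The share of Rxrb was 54.0% to 61.7% in normal and 60.8% to 67.3% in HFD mice. These sums and shares follow from the values of the single genes and were not tested apart from them.

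**Figure D3:**
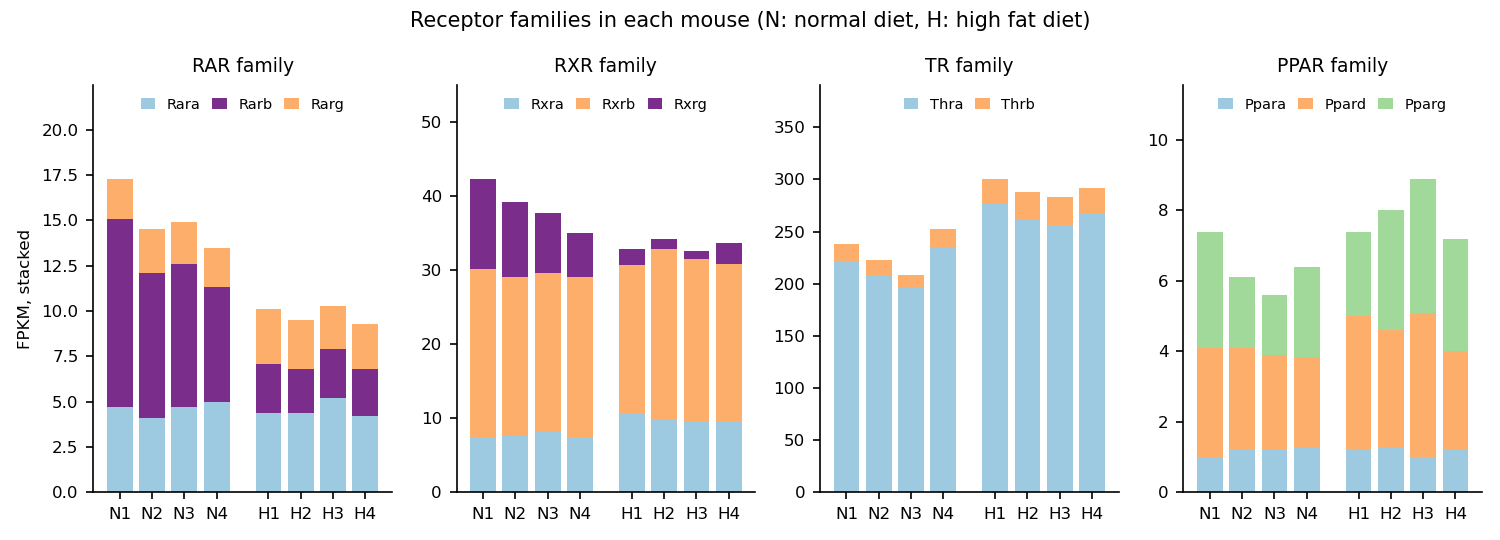
Stacked FPKM (y axis) of the RAR, RXR, thyroid hormone receptor (TR) and PPAR genes in each mouse, with normal mice as N1 to N4 and HFD mice as H1 to H4. The Rarb and Rxrg segments shrink in all 4 HFD mice, while Thra holds over 90% of the thyroid receptor bar in both diets.

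Among normal mice, mouse 1 had the highest Rarb, Rxrg and striatum marker sum, at 10.4, 12.2 and 560.6 FPKM, and mouse 4 had the lowest of each, at 6.3, 5.9 and 333 FPKM. Rarb as a percent of the striatum marker sum was 1.86, 1.71, 1.79 and 1.89 in normal mice and 1.78, 1.57, 1.64 and 1.71 in HFD mice. The diets overlapped in this ratio, whereas they did not overlap in Rarb itself. The markers in the sum did not fall by like amounts, as the values of Penk, Ppp1r1b and Gnal below show. The ratio thus depends on which markers are summed, and ratios to single markers were not taken. Rxrg as a percent of the same sum was 2.18, 2.16, 1.83 and 1.77 in normal mice and 1.45, 0.918, 0.606 and 1.84 in HFD mice. In this percent, HFD mouse 4 lay within the normal range and the other 3 HFD mice lay below it. Among HFD mice the sum spanned only 151.4 to 164.9 FPKM, and Rxrg itself was low, at 1.0 to 2.8 FPKM. Rxrg was lowest in HFD mouse 3, where the sum was highest. Whether Rxrg follows the sum among HFD mice was not tested, since the sum hardly varied there.

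With the mean striatum marker level per mouse as a covariate in the limma fit, the log2 fold change of Rarb was 0.051 (SE 0.35) and that of Rxrg was 0.57 (SE 1.20), both with an adjusted p of 1.00. That marker level and diet share an R squared of 0.956, and the standard errors of the 10 genes were 2.65 to 5.08 times as large as without the covariate. None of the 10 was called in this fit. Penk, an opioid peptide gene of striatal neurons and the striatum marker with the highest mean over all 8 mice, was at 131.5, 114.4, 118.5 and 71.3 FPKM in normal mice and at 11.7, 9.3, 11.4 and 12.3 FPKM in HFD mice. Ppp1r1b, which encodes the dopamine-regulated DARPP-32, averaged 90.2 ± 21.7 FPKM in normal and 27.4 ± 4.41 FPKM in HFD mice, and Gnal, the G protein subunit of striatal dopamine signalling, 38.5 ± 3.03 and 25.6 ± 0.810 FPKM. Diet and the level of striatum RNA in the sample cannot be told apart for Rarb and Rxrg in these mice.

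**Figure D4:**
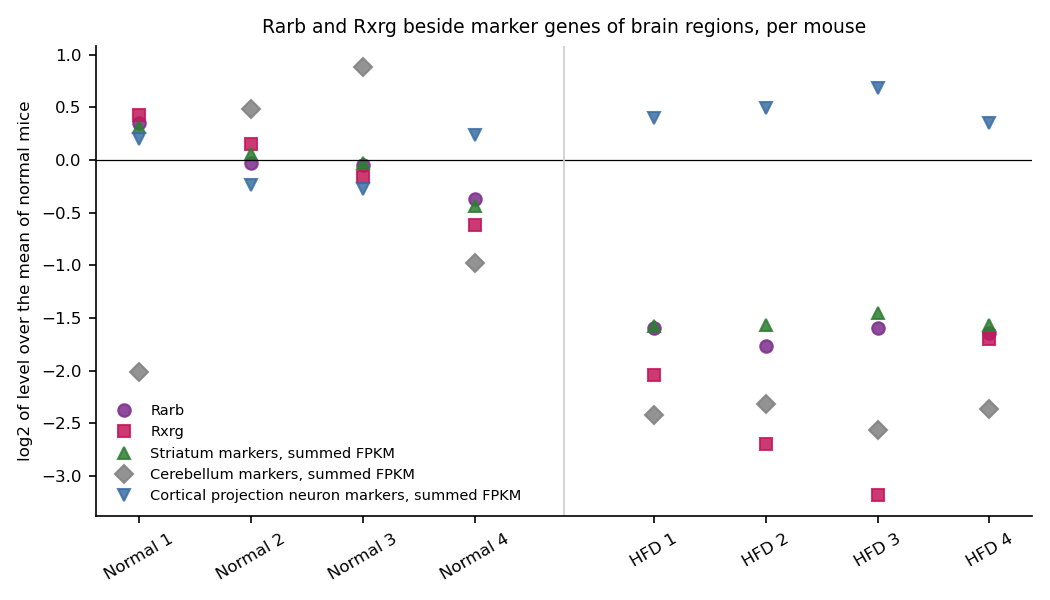
Log2 of each value over the mean of the normal mice (y axis) in each mouse (x axis) for Rarb, Rxrg and the summed FPKM of the striatum, cerebellum and cortical projection neuron markers. Rarb lies next to the striatum marker sum in all 8 mice, from normal mouse 4, the lowest of its diet, to the HFD mice near -1.6, and Rxrg lies lowest in HFD mouse 3.

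The thyroid hormone receptors were both higher in HFD mice. Thra was at 220.4, 208.3, 196.3 and 235.3 FPKM in normal mice and at 276.0, 261.3, 255.9 and 267.6 FPKM in HFD mice. The diets did not overlap, and the mean rose by 23.3% from 215 ± 16.7 to 265 ± 8.64 FPKM (log2 fold change 0.30, SE 0.06, 95% interval 0.17 to 0.44, limma adjusted p = 0.00553). Normal mice 2 and 3, the mice with the highest cerebellum markers, had the lowest Thra.

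Thrb, the paralog that is not one of the 10 genes, was at 17.6, 14.7, 12 and 17.2 FPKM in normal mice and at 24.7, 26.3, 27.5 and 24.4 FPKM in HFD mice, a log2 fold change of 0.75 (SE 0.11, adjusted p = 0.00165). Thrb too was lowest in normal mice 2 and 3, and its call was lost with the cerebellum markers (0.40, adjusted p = 0.0699) or the cortical projection neuron markers (0.28, adjusted p = 0.122) as covariate. Thra held 92.6% to 94.2% of the summed FPKM of the pair in normal and 90.3% to 91.8% in HFD mice. The Thra call was lost with the cerebellum markers (log2 fold change 0.18, adjusted p = 0.223) or the cortical projection neuron markers (0.15, adjusted p = 0.380) as covariate, and was kept without normal mice 2 and 3 (0.22, adjusted p = 0.0317). The last exons of Thra overlap 263 bases of Nr1d1, the clock receptor gene REV-ERB alpha on the opposite strand. The overlap is 5.70% of the exonic length of Thra. Nr1d1 was at 11.8, 14.2, 9.7 and 12.1 FPKM in normal mice and at 24.7, 26.0, 29.5 and 21.1 FPKM in HFD mice (log2 fold change 1.08, SE 0.12, adjusted p = 0.000775), and the part of its reads in the Thra value was not tested.

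The fatty acid receptors were the least abundant of the 10 genes in normal mice, and neither was called. In HFD mice Ppard, at a mean of 3.50 FPKM, was above Rarb and Rxrg. Ppara, the receptor of fatty acid oxidation, was at 1.0, 1.2, 1.2 and 1.3 FPKM in normal mice and at 1.2, 1.3, 1.0 and 1.2 FPKM in HFD mice, the same 4 values in another order. With a 95% interval of -0.33 to 0.33 on the log2 scale and a rounding step of 0.1 FPKM, smaller differences were not detectable. Ppard, the broadly expressed PPAR, was at 3.1, 2.9, 2.7 and 2.5 FPKM in normal mice and at 3.8, 3.3, 4.1 and 2.8 FPKM in HFD mice.

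Of the HFD mice, 3 were above all normal mice in Ppard and HFD mouse 4 was within their range. The log2 fold change of Ppard was 0.30 (SE 0.13, 95% interval 0.02 to 0.59, limma adjusted p = 0.0956), and without HFD mouse 4 it was 0.40 with an adjusted p of 0.0321, so this 1 mouse decided the call. Pparg, the paralog known from fat tissue, averaged 2.40 ± 0.707 FPKM in normal and 3.20 ± 0.589 FPKM in HFD mice (adjusted p = 0.142), and without normal mouse 1 it was called higher (0.59, adjusted p = 0.0402).

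Nr1h2, which encodes LXR beta, the main oxysterol receptor of brain, was at 15.9, 16.3, 12.8 and 14.0 FPKM in normal mice and at 18.1, 19.1, 22.3 and 16.2 FPKM in HFD mice. HFD mouse 4 was just below normal mouse 2, so the diets overlapped. The mean rose by 28.3% (log2 fold change 0.35, SE 0.11, 95% interval 0.12 to 0.59, limma adjusted p = 0.0299). This was the weakest of the 6 calls: leaving out 1 mouse ended it in 5 of 8 cases, namely without normal mouse 3 or 4 or without HFD mouse 1, 2 or 3, and the highest adjusted p was then 0.0717. It was also lost with the cerebellum markers (0.23, adjusted p = 0.440) or the cortical projection neuron markers (0.15, adjusted p = 0.689) as covariate. The paralog Nr1h3, LXR alpha, was at 1.78 ± 0.377 FPKM in normal and 1.25 ± 0.173 FPKM in HFD mice, with a log2 fold change of -0.46 (SE 0.17, adjusted p = 0.0697), and without normal mouse 4 it was called lower (-0.59, adjusted p = 0.0221).

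Ppargc1a, the coactivator of PPAR and thyroid hormone receptors that drives mitochondrial genes, was at 9.0, 9.9, 8.7 and 9.9 FPKM in normal mice and at 13.2, 12.9, 13.1 and 11.9 FPKM in HFD mice. Every HFD mouse was above every normal mouse. The mean rose by 36.3% from 9.38 ± 0.618 to 12.8 ± 0.597 FPKM (log2 fold change 0.44, SE 0.06, 95% interval 0.30 to 0.58, limma adjusted p = 0.00141). Its relative Ppargc1b rose as well, from 4.58 ± 0.427 to 5.85 ± 0.507 FPKM (0.35, SE 0.09, adjusted p = 0.0156), as did Pprc1, a further gene of the family, from 2.60 ± 0.216 to 3.50 ± 0.346 FPKM (0.41, adjusted p = 0.0145). The Ppargc1a call was lost with the cortical projection neuron markers as covariate (0.36, adjusted p = 0.110), and Rxra kept its call in that fit (0.49, adjusted p = 0.0479). Ppargc1b lost its call with the cerebellum markers (0.46, adjusted p = 0.0854) or the cortical projection neuron markers (0.41, adjusted p = 0.191) as covariate.

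Of 24 coactivators and corepressors, 11 were called higher and 2 lower in HFD, with a median log2 fold change of 0.17. Crebbp, which encodes an acetyltransferase recruited by nuclear receptors, rose from 13.1 ± 0.943 to 20.1 ± 1.39 FPKM (0.62, SE 0.07, limma adjusted p = 0.000729). The acetyltransferase gene Ep300 rose too, by 0.47 on the log2 scale, and the coactivator Ncoa6 by 0.56. Kat2b, another acetyltransferase gene, fell by 0.52, and it was highest in normal mice 2 and 3. Without these 2 mice, 6 coactivators and corepressors were called higher. The cerebellum markers as covariate left 3 called higher, and the cortical projection neuron markers left 0 called.

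Of 25 other nuclear receptor genes tested from a list of 40, 9 were called higher and 0 lower by limma. At an unadjusted p below 0.05, 10 were higher and 2 lower. Pgr, the progesterone receptor, rose from 4.20 ± 0.408 to 7.28 ± 0.834 FPKM (0.78, SE 0.10, adjusted p = 0.00109). Nr2f1, the orphan receptor COUP-TFI of cortical patterning, rose from 25.5 ± 2.29 to 35.6 ± 4.37 FPKM (0.48), and Nr2e1 and Nr6a1 rose by 0.43 and 0.33. Without normal mice 2 and 3, 5 were called higher. The cerebellum markers as covariate left 2 called higher, and the cortical projection neuron markers left 0 called.

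**Figure D5:**
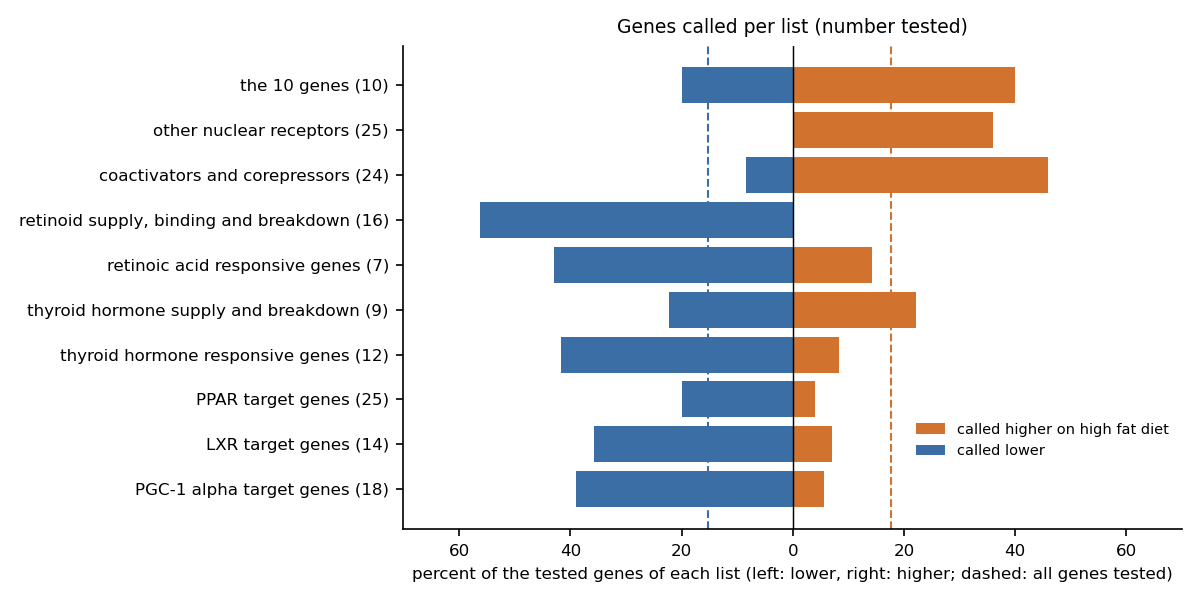
Percent of the tested genes of each list called lower (left, blue) or higher (right, orange) in HFD mice, with the number tested in brackets and dashed lines for the 15.3% and 17.7% of all genes tested. Receptor partners lie mostly to the right, and retinoid supply and the target lists of LXR and PGC-1 alpha lie mostly to the left. For PPAR targets the left bar, at 20%, ends near the dashed line of all genes.

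Of the genes of retinoid supply, 9 of 16 were called lower. These genes make retinoic acid from vitamin A, carry it and break it down. The 16 were those tested from a list of 27, and 0 were called higher by limma, with 10 lower and 1 higher at an unadjusted p below 0.05, and the median log2 fold change was -0.19. Aldh1a1, an enzyme of retinoic acid synthesis, was at 30.4, 56.8, 54.9 and 27.2 FPKM in normal mice and at 13.3, 12.1, 13.3 and 11.6 FPKM in HFD mice, a log2 fold change of -1.67 (SE 0.23, adjusted p = 0.0012). The diets did not overlap, and normal mice 2 and 3 were about level with each other and well above normal mice 1 and 4. The retinol dehydrogenase gene Rdh5 was highest in the same mice, at 3.7 and 3.8 FPKM, and fell by 1.11.

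Cyp26b1, the main enzyme of retinoic acid breakdown in brain, was at 2.0, 2.7, 2.8 and 2.1 FPKM in normal mice and at 1.6, 1.1, 1.2 and 1.3 FPKM in HFD mice (-0.83, SE 0.16, adjusted p = 0.0046). Fabp5, which carries retinoic acid to PPAR delta, went from 94.9 ± 4.69 to 71.5 ± 5.28 FPKM (-0.41, SE 0.06, adjusted p = 0.00176), with no overlap between the diets. The dehydrogenase and reductase gene Dhrs4 fell by 0.34. Without normal mice 2 and 3, 3 genes of the list were called lower, and with the cerebellum markers as covariate 1 was. The cortical projection neuron markers as covariate left 0 called. Of 7 genes known to respond to retinoic acid, 3 were called lower and 1 higher, although the median log2 fold change was 0.06. Cyp26b1 stands in both lists, Rarres2 fell by 0.63, and the corepressor gene Nrip1 rose by 0.27. Of the same 7 genes, 0 were called with the cerebellum markers or the cortical projection neuron markers as covariate.

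Genes of thyroid hormone supply were mixed, with 2 of 9 called higher and 2 lower. Slc7a8, an amino acid transporter that also carries thyroid hormone, rose from 8.73 ± 1.29 to 14.2 ± 0.707 FPKM (0.71, SE 0.10, limma adjusted p = 0.00129). The thyroxine transporters of brain vessels fell, Slco1c1 by 0.45 and Slco1a4 by 0.32. Of 2 endothelial markers called lower, 1 was Slco1a4 itself, and the summed endothelial markers were 89.4 to 100.4 FPKM in normal and 80 to 90.6 FPKM in HFD mice.

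Of 12 thyroid hormone responsive genes, 5 were called lower and 1 higher, with a median log2 fold change of -0.28. Rasd2, known as Rhes and rich in striatum, was at 47.3, 39.3, 34.3 and 31.2 FPKM in normal mice and at 17.1, 18.1, 24.0 and 16.8 FPKM in HFD mice (-0.99, SE 0.14, adjusted p = 0.00149). Its order among normal mice, from mouse 1 down to mouse 4, was that of the striatum marker sum. Mbp, the myelin basic protein gene that is also an oligodendrocyte marker, fell by 0.77 and Thrsp, the thyroid hormone responsive spot 14 gene, by 0.71. Camk4, a calcium-dependent kinase gene, fell by 0.56 and Itga7 by 0.66, whereas Gpd2, a mitochondrial enzyme gene, rose by 0.29. Thra and Thrb were higher while 5 of the 6 called genes of this list were lower, and the part of the striatum and oligodendrocyte levels in that was not tested. Without normal mice 2 and 3, 4 genes of the list were called lower and 0 higher. The cerebellum markers as covariate left 3 lower and 0 higher, and the cortical projection neuron markers left 2 lower and 0 higher.

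Of 25 PPAR target genes, 5 (20%) were called lower and 1 (4%) higher, against 15.3% and 17.7% of all genes tested. The share called lower was thus near that of all genes, and the median log2 fold change was -0.057. Among the 19 that did not pass the test were the oxidation genes Cpt1a and Pdk4, looked up after the calls were seen. Their log2 fold changes were 0.0029 and -0.016. Plin4, a lipid droplet coat gene, was at 0.6, 1.4, 0.8 and 0.7 FPKM in normal mice and at 2.8, 1.9, 3.5 and 2.8 FPKM in HFD mice. The diets did not overlap, and the rise of 1.58 on the log2 scale (SE 0.26, limma adjusted p = 0.00248) was the largest of any target gene called higher. Lpl, the lipoprotein lipase gene, was at 4.8, 3.6, 3.8 and 3.7 FPKM in normal mice and at 2.1, 2.9, 1.8 and 2.1 FPKM in HFD mice (-0.82, SE 0.15, adjusted p = 0.00397). Plin2, a further lipid droplet gene, fell by 0.42, and the mitochondrial fatty acid genes Slc25a20, Hadha and Hadhb by 0.39, 0.35 and 0.34. Without normal mice 2 and 3, 3 PPAR target genes were called lower and 1 higher. The cerebellum markers as covariate left 1 called lower and 1 higher, and the cortical projection neuron markers left 0 lower and 1 higher.

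LXR target genes numbered 14, of which 5 were called lower and 1 higher, with a median log2 fold change of -0.12. Abca1, the cholesterol efflux pump, was at 7.4, 8.9, 8.3 and 8.0 FPKM in normal mice and at 6.0, 5.9, 5.6 and 5.8 FPKM in HFD mice (-0.47, SE 0.07, limma adjusted p = 0.00145). Every HFD mouse was below every normal mouse. Scd1, a fatty acid desaturase gene, went from 38.7 ± 3.41 to 26.0 ± 2.85 FPKM (-0.57, SE 0.09, adjusted p = 0.00173) and its brain paralog Scd2 fell by 0.27. Lpcat3 and Smpdl3a fell by 0.38 and 0.26, and the neuronal sterol transporter Abcg4 rose by 0.46. Without normal mice 2 and 3, 3 LXR target genes were called lower and 1 higher. The cerebellum markers as covariate left 0 called lower and 1 higher, and the cortical projection neuron markers left 0 called.

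Of 18 PGC-1 alpha target genes, 7 were called lower and 1 higher, with a median log2 fold change of -0.15. Pvalb, the calcium buffer of fast-spiking interneurons and of cerebellar Purkinje cells, was at 50.1, 140.3, 145.8 and 60.5 FPKM in normal mice and at 41.3, 41.1, 55.6 and 33.4 FPKM in HFD mice (-1.07, SE 0.34, limma adjusted p = 0.0367). Normal mice 2 and 3 stood far above the rest, and these were the mice with the highest cerebellum marker sums. Fndc5, the precursor gene of irisin, was at 32.5, 40.7, 41.0 and 30.3 FPKM in normal mice and at 23.7, 21.7, 25.7 and 19.5 FPKM in HFD mice (-0.67, SE 0.12, adjusted p = 0.00329).

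The neurofilament gene Nefh fell by 0.55, Cycs, which encodes cytochrome c, by 0.34, and the ATP synthase gene Atp5b by 0.27, while the mitochondrial deacetylase gene Sirt3 rose by 0.24. With the cerebellum markers or the cortical projection neuron markers as covariate, 0 PGC-1 alpha target genes were called. Without normal mice 2 and 3, 2 were called lower and 1 higher. Of the 10 receptor and coactivator genes, 5 kept their call without these mice, and Nr1h2 did not (log2 fold change 0.33, adjusted p = 0.0864).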

How the data were processed

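Cortex RNA of 4 normal and 4 HFD mice was sequenced by the authors as stranded, rRNA-depleted, paired-end libraries. The deposited FPKM values were made by the authors by quality checks in FastQC, trimming in Trimmomatic, alignment to mm10 in STAR and quantification in Cuffnorm, with GENCODE M17 (GRCm38.p6) as gene annotation. Not given in the sources used here were tool versions, the use of strand in counting and the depth per library. Genes were left out by the authors if they had a mean FPKM under 1 or a 0, and 14 of the 13996 genes in the table lie outside that rule and were not tested. Salmon and edgeR, which the submitters' notes also name, gave no values used here. The sum of FPKM was 585155 to 634491 in normal and 562431 to 639142 in HFD mice.

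The diets were compared with limma 3.58.1 in R 4.3.3 on log2(FPKM + 0.1) with a variance trend over 13982 genes and Benjamini-Hochberg adjustment. Per-gene summaries were made in Python 3.11.15. The study kept genes that passed a test per gene on FPKM as well as a second pipeline. Here only FPKM was used, and limma, which pools the spread over genes, was chosen because n = 4. On data simulated for this comparison over 13982 genes, 91 of 100 genes changed 2-fold and 97 of 100 changed 3-fold were recovered, with 10 false calls. Only 200 genes were changed there, with independent noise per gene and no shift in tissue makeup, whereas 33.1% of genes were called in the data. Changes below 2-fold, such as those of the 4 genes called higher, were not simulated, so these rates do not cover them. GEO's labels number the mice 1 to 4 in each diet, and same-numbered mice did not deviate together (r of -0.11 to -0.03), so the comparison has no replicate term. P-values set the difference between diets against the spread among mice of the same diet, pooled in part over genes, in these 8 mice.

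The 10 genes, the 22 other gene lists and the tests were chosen with earlier results of these data known. From the partner, supply and target lists, the genes named are those called, largest absolute log2 fold change first and at most 6 a list, with Pparg, Rarg, Thrb, Nr1h3 and Ppargc1b; from the marker lists, at most 3 with the highest mean FPKM. Some genes that this rule names are not reported here. Alternatives were a constant of 1 or 0.01, no filter or a minimum mean of 5, other scalings, no trend, the replicate number as a block, each mouse left out, marker levels as covariates and a minimum change of 50%. The fit without normal mice 2 and 3 and the cortical projection neuron covariate were added after seeing the data. Positions and exon overlaps are from GENCODE M21 on the same build, and promoter windows from RefSeq on GRCm38.p6. Gene identifiers are printed with the version of the deposited values, which for Ppard and Rxrb is older than that of M21.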

Additional observations from a re-analysis of the deposited data

Results flagged for a closer look

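Of 230 groups of 4 mice examined over the named genes and the family and marker sums, 15 had 1 mouse that stood apart from the other 3 by Dixon's test, where chance gives about 1 in 20. Among the 10 genes this was the case for Rxrb only, with 22.9 FPKM in normal mouse 1 against 21.4 to 21.6 FPKM in the other 3. Normal mouse 1 was also high for Slco1a4 at 16.4 FPKM, Cldn5 at 26.4 FPKM and Lpl at 4.8 FPKM, genes of brain vessels and of lipid uptake. HFD mouse 2 was high for Nr2f1 at 42.1 FPKM.

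HFD mouse 3 had the highest oligodendrocyte marker sum of its diet at 2059.5 FPKM, with Mbp at 949.5 and Mobp at 402 FPKM, and the precursor marker Pdgfra lowest at 13.3 FPKM. Its striatum marker sum was also the highest of the HFD mice at 164.9 FPKM, while its Rxrg was the lowest of all 8 mice at 1.0 FPKM. HFD mouse 4 had a choroid plexus and ependyma marker sum of 951.5 FPKM against 25.5 to 80.9 FPKM in the other HFD mice. Its Ttr, the thyroxine carrier of choroid plexus, was at 920.7 FPKM, Kcnj13 at 9.7 FPKM and Folr1 at 7.2 FPKM. In the normal mice the sum was 351.9 to 744.4 FPKM and Ttr 332.6 to 706.8 FPKM. The other HFD mice thus lay below every normal mouse in both, and HFD mouse 4 lay above. The orphan receptor gene Rora was lowest in HFD mouse 4 at 17.5 FPKM. HFD mouse 4 was also the mouse without which Ppard was called higher. The part of choroid plexus RNA in that was not tested.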

How the results depend on the processing

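The calls for Rarb, Rxrg, Rxra, Ppargc1a and Thra held for each other constant, filter, scaling and variance setting and for each mouse left out. Of the 13982 genes, 4626 were called, and of the 10 genes 6, and of the genes on the other lists 140. Leaving out 1 mouse gave 3295 to 4619 genes, 5 to 7 of the 10 and 107 to 143 on the other lists. With the replicate block, 3390 genes, 5 of the 10 and 112 on the other lists were called, and Nr1h2 was lost (adjusted p = 0.0616). A minimum change of 50% left 997 genes and 2 of the 10.

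With the striatum markers as covariate, 0 genes, 0 of the 10 and 0 on the other lists were called by limma, with 314 genes at an unadjusted p below 0.05, and the sign of Rxrg (0.57) and Rarb (0.051) turned. The marker level nearly repeats diet there (R squared 0.956). The cerebellum markers as covariate (R squared 0.627) gave 840 genes, 4 of the 10 and 36 on the other lists. The cortical projection neuron markers (R squared 0.703) gave 365 genes, 2 of the 10, Rarb and Rxra, and 16 on the other lists. Leaving out normal mice 2 and 3 gave 2743 genes, 5 of the 10 and 87 on the other lists, with fewer samples in the fit. Quantile normalization called Nr1h3 lower (-0.52, adjusted p = 0.0471). The cause of each other change was not tested. Depth is unknown, and the values are rounded to 0.1 FPKM, which is coarse for genes near 1 FPKM such as Ppara.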

Other observations

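Of 15 circadian clock genes, which include the receptor gene Nr1d1, 11 were called higher in HFD mice and 2 lower by limma, with a median log2 fold change of 0.49, against 17.7% and 15.3% of all genes tested. Dbp, a clock output factor, was at 23.1, 24.6, 25.4 and 21.5 FPKM in normal mice and at 45.5, 47.1, 43.8 and 44.3 FPKM in HFD mice (log2 fold change 0.93, SE 0.06, adjusted p = 6.68e-05). The diets lay far apart. Npas2, a partner of the core clock, rose by 0.90 on the log2 scale, Per3 by 0.71, Per2 by 0.68 and the output factor Hlf by 0.54. Without normal mice 2 and 3, 9 clock genes were called higher and 1 lower, and 5 were called higher with the cerebellum markers and 1 with the cortical projection neuron markers as covariate. The sources used here do not state the hour of killing.

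The other marker lists gave the following counts. Of 9 microglia markers, 0 were called by limma, with 1 at an unadjusted p below 0.05, and their sum was 212.7 to 248.2 FPKM in normal and 219.7 to 232.9 FPKM in HFD mice. Astrocyte markers were mixed, with 3 of 10 called higher and 3 lower, as were oligodendrocyte precursor markers, with 2 of 8 higher and 4 lower, interneuron markers, with 2 of 10 higher and 4 lower, and endothelial markers, with 1 of 8 higher and 2 lower. Of 8 thalamus markers, 3 were called lower, of 5 blood markers 5, and of 8 choroid plexus and ependyma markers 5.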
